A study of Mus musculus with 60 samples.

Results

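The 9 genes described here are known from the eosinophil, and Ear2 and the 3 receptor genes also from other cells. The set holds Prg2, Prg3 and Epx of the eosinophil granules, the ribonuclease genes Ear1, Ear2 and Ear6, and the surface receptor genes Siglecf, Ccr3 and Il5ra. They were taken by symbol from a table of 54532 genes, each matched exactly 1 row, and all 9 were followed through the 60 libraries as CPM, the reads of a gene relative to the library total after TMM scaling. The libraries came from 15 tissues with 4 replicates each, taken from female C57BL6/J mice, 6 weeks old, that were anaesthetised and perfused through the heart with saline and EDTA, after which the tissues were kept in RNAlater. The tissues were bone marrow, spleen, blood, inguinal lymph node, mesenteric lymph node, thymus, lung, skin, small intestine, colon, female reproductive tract, liver, kidney, heart and brain. No strain, genotype or treatment differed between them per the labels, and no sorting of cells is described. The labels do not say whether a replicate is 1 animal or a pool, nor whether libraries with the same number share an animal, so p-values measure the spread between these libraries.

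Eosinophils are granulocytes made in the bone marrow under the cytokine interleukin 5 and transcription factors of the GATA, C/EBP and PU.1 families. Their granule proteins are made in precursors, packed into granules and carried in mature cells, which leave the marrow and settle mainly in the gut, and also in the thymus, uterus and adipose tissue. Of the receptors, that for interleukin 5 acts on precursors in the marrow as well as on mature cells, while the eotaxin receptor draws cells into tissue and Siglec-F restrains them. None of the receptors is found on eosinophils alone.

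Each library was primed from poly(A) tails, so a count is a sequenced read from the 3′ end of a transcript. The median library total was 2649668 counts, the lowest 353605 (female reproductive tract replicate 3) and the highest 5211133 (an inguinal lymph node library). Female reproductive tract replicates 3 and 4 stood apart, with correlations of 0.895 and 0.927 to the mean of the other libraries of their tissue across 18562 tested genes, against 0.959 or more in the other libraries. Brain replicate 3 and liver replicate 4 were also doubted, since the Paneth cell defensin gene Defa24 stood at 393 and 241 CPM in them, against 27.2 CPM or less in the other brain and liver libraries. The blood libraries are titled as mononuclear cells while their tissue label says whole blood, and 7 mature neutrophil genes summed to between 34845 and 39424 CPM in bone marrow and to between 1151 and 1923 CPM in these blood libraries.

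In bone marrow, 6 of the 9 genes (Prg2, Prg3, Epx, Ear1, Ear2 and Ear6) had their lowest library above every library of the other 14 tissues. The same held for 3.75% of the tested genes. These 6 are the granule protein and ribonuclease genes, and the other 3 are the receptor genes. Tested against the equally weighted mean of the other 14 tissues, all 9 were called higher in bone marrow, where 17.6% of tested genes were called higher and 16.1% lower. A call means an adjusted p below 0.05 with an absolute log2 fold change above 1, and the adjusted p ran from 1.026e-57 for Prg2 to 3.477e-12 for Il5ra (edgeR's quasi-likelihood test, Benjamini-Hochberg). All 9 passed the filter on low counts, which they could do through bone marrow or 1 other tissue alone. Each had at least 1 tissue with 0 reads, so the fitted fold changes of this comparison depend on the prior count and are not given. In whole tissue, fewer cells of a type and less RNA per cell cannot be told apart.

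**Figure D1:**
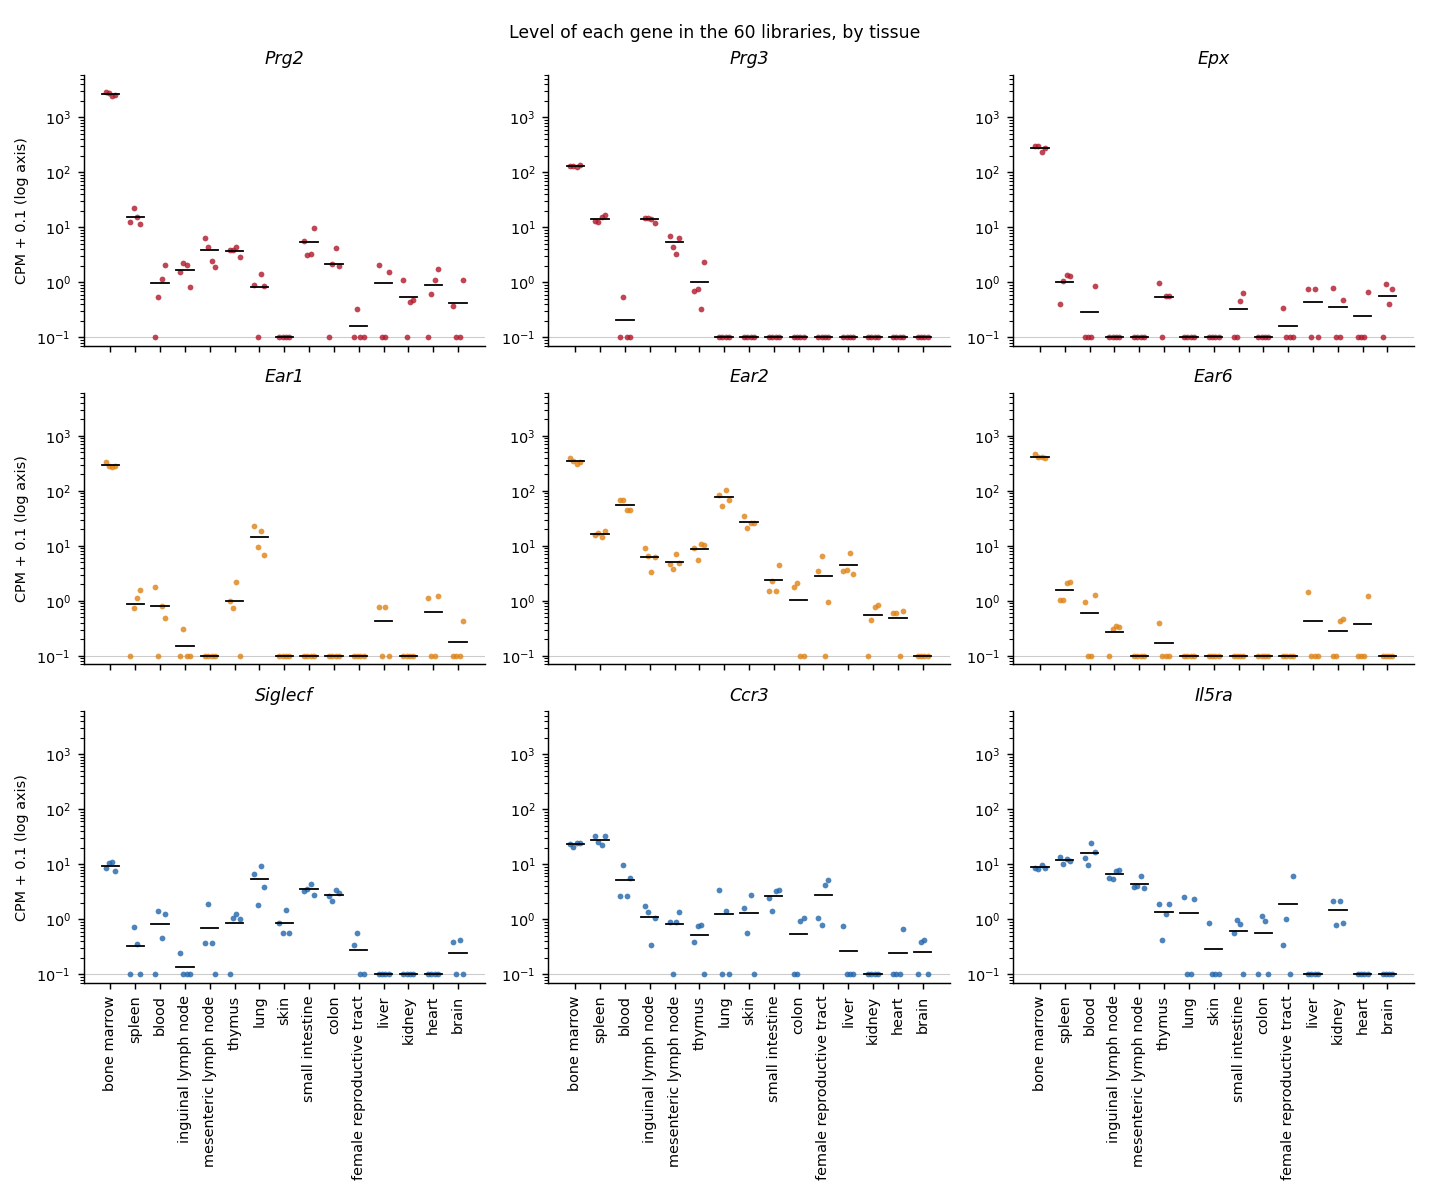
Level of each of the 9 genes in all 60 libraries, as CPM + 0.1 on a log axis, with tissues along the horizontal axis, 1 point per library and a bar at the mean of 4; points on the grey line have 0 reads. Prg2, Epx and Ear6 stand alone in bone marrow, Ear2 is also at 77.2 CPM in lung and 56.1 CPM in blood, and in spleen Ccr3 overlaps bone marrow and Il5ra lies above it.

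Among the granule genes, Prg2 encodes major basic protein, the crystalline core of the granule (ENSMUSG00000027073, mm10 chromosome 2, 84980461 to 84983632, plus strand). Its 4 bone marrow libraries held 2856, 2812, 2489 and 2553 CPM. Spleen came next with 12.7, 22.5, 15.6 and 11.6 CPM, and small intestine held 5.52, 3.04, 3.23 and 9.74 CPM. Every bone marrow library was far above the others, and spleen was above small intestine in every library. Below those, mesenteric lymph node (3.73 ± 2.09 CPM, SD, n = 4 here and below), thymus (3.66 ± 0.640 CPM), colon (2.03 ± 1.71 CPM) and inguinal lymph node (1.57 ± 0.630 CPM) overlapped each other in sequence. Skin held 0 reads, so bone marrow was at least 8716-fold higher, taking 3 counts over the 4 pooled libraries as the limit that a count of 0 allows. Limits and intervals of this kind cover counting error only, since no molecular identifiers are described.

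Prg3 lies next to Prg2 on the same strand and encodes the homologous major basic protein 2 (ENSMUSG00000027072, chromosome 2, 84988215 to 84993886). It stood at 129, 132, 124 and 135 CPM in bone marrow. Spleen had 12.96, 12.68, 15.1 and 16.7 CPM and inguinal lymph node 15.0, 15.0, 14.1 and 11.7 CPM, which overlap. Mesenteric lymph node had 6.93, 4.35, 3.18 and 6.39 CPM, below both. Of the lymphoid organs the thymus held least, at 0.938 ± 0.916 CPM from 10 reads. Prg3 had 0 reads in 9 tissues, small intestine, colon, lung and skin among them, and 1 read in blood. Its distribution therefore parted from that of Prg2. Inguinal lymph node held 10.7% of the bone marrow level of Prg3 and 0.0586% of that of Prg2, and small intestine held 0.201% of that of Prg2 with no Prg3 read. Over the last 300 bases, where reads of this assay fall, transcripts of Prg2 and Prg3 were 68.1% identical with no identical run longer than 9 bases.

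Epx encodes eosinophil peroxidase, which makes bactericidal hypobromous acid (ENSMUSG00000052234, chromosome 11, 87864000 to 87875536, minus strand). Bone marrow held 301, 306, 239 and 271 CPM. In the other 14 tissues no library exceeded 1.28 CPM, the highest being in spleen, where 13 reads gave 0.933 ± 0.439 CPM. Colon, inguinal lymph node, mesenteric lymph node, lung and skin held 0 reads, for which bone marrow was at least 408-, 1831-, 1315-, 484- and 907-fold higher. Both lymph nodes thus had reads of Prg2 and Prg3 and none of Epx.

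The Ear genes encode secreted ribonucleases related to human eosinophil-derived neurotoxin and eosinophil cationic protein, and in the mouse they lie as a family of close copies on chromosome 14. Ear1 (ENSMUSG00000072601, 43818765 to 43875517, minus strand) and Ear2 (ENSMUSG00000072596, 44102654 to 44103534, plus strand) share 98.7% of the last 300 bases of their transcripts, with identical runs of up to 93 bases. Reads of either may therefore have been discarded or assigned to the other, and their values are uncertain to that extent. Ear6 (ENSMUSG00000062148, 51853699 to 51854643, plus strand) shares 89.9% with Ear1 and 89.5% with Ear2. Ear1 also overlaps 4 annotated genes or pseudogenes and Ear2 the antisense gene Gm49101, and the sources used here do not give the strand setting of the counting. The promoters of the 3 genes are printed to show how close these copies are, as 300 bases that end shortly after the start site, 5′ to 3′ on the strand of the gene, as given by RefSeq on GRCm38.p6. Capitals mark bases that differ from, or are absent in, the aligned Ear2 sequence or, in Ear2, the aligned Ear1 sequence.
Ear1 (chr14:43819590-43819889, minus strand): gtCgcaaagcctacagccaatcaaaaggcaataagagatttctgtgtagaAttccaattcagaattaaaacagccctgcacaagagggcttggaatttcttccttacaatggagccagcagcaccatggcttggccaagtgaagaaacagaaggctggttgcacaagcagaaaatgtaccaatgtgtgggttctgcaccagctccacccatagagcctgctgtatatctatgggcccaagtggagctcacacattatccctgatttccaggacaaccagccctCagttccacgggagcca
Ear2 (chr14:44102404-44102703, plus strand): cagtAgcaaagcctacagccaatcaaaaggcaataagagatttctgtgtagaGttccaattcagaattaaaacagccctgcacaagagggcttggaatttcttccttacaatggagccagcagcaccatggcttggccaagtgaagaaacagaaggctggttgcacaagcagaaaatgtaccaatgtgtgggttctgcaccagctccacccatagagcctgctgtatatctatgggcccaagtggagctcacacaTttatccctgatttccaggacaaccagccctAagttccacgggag
Ear6 (chr14:51853518-51853817, plus strand): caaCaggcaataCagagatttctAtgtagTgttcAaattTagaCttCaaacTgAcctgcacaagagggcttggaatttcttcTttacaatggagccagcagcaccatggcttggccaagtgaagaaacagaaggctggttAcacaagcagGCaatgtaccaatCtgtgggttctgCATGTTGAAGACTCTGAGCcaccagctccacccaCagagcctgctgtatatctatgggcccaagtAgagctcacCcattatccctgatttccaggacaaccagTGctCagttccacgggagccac
Aligned, Ear1 and Ear2 were 98.99% identical over 297 bases, with 3 bases in capitals in Ear1 and 4 in Ear2. Ear6 was 92.8% identical to each of them and has 40 bases in capitals. The letters TTGCNNAA, a form bound by C/EBP factors, were found in Ear1 and Ear2 and not in this window of Ear6. On either strand they occur in 10.8% of 32851 promoters of this length.

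Although their 3′ ends and promoters are so alike, the 3 Ear genes were distributed differently. All were high in bone marrow, with Ear1 at 335, 283, 266 and 286 CPM, Ear2 at 393, 345, 307 and 328 CPM and Ear6 at 462, 403, 409 and 395 CPM. Ear6 was close to the marrow alone, and its next tissue was spleen at 0.926, 0.951, 2.05 and 2.09 CPM. It had 0 reads in 7 tissues, among them lung, where bone marrow was at least 726-fold higher.

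Ear1 had 1 tissue besides the marrow, the lung, with 22.7, 9.55, 18.5 and 6.83 CPM. No other tissue exceeded a mean of 0.909 CPM, and lung stood above every library of those 13. Small intestine held no Ear1 read, so bone marrow was at least 888-fold higher.

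Ear2 had reads in every tissue except brain. Lung held 84.2, 52.1, 105 and 67.5 CPM and blood 67.1, 68.6, 45.1 and 43.8 CPM, which overlap. Skin followed with 34.1, 20.9, 25.4 and 26.4 CPM, then spleen with 15.7, 16.8, 14.1 and 18.8 CPM, each without overlap with the tissue above it. Thymus (8.80 ± 2.30 CPM), inguinal lymph node (6.27 ± 2.42 CPM), mesenteric lymph node (4.98 ± 1.38 CPM) and liver (4.30 ± 2.02 CPM) came next and overlapped their neighbours. Ear2 RNA is also known in mouse monocytes and macrophages. A list of 8 nonclassical monocyte and macrophage genes summed to between 360 and 410 CPM in bone marrow, and to between 444 and 718 CPM in blood, 147 and 317 CPM in lung and 161 and 248 CPM in skin, and their part in the Ear2 levels was not tested. Of the other ribonucleases of this family, Rnase2b stood at 58.8 ± 29.6 CPM in skin and at most 0.888 CPM on average elsewhere.

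Siglecf encodes a sialic acid binding inhibitory receptor (ENSMUSG00000039013, chromosome 7, 43351341 to 43359531, plus strand). In bone marrow it stood at 8.64, 10.3, 10.8 and 7.60 CPM from 92 reads. Lung held 6.48, 1.74, 9.24 and 3.79 CPM from 29 reads and overlapped bone marrow. Small intestine (3.22, 3.48, 4.30 and 2.71 CPM, 32 reads) and colon (2.54, 2.05, 3.34 and 2.86 CPM, 12 reads) overlapped each other and stood below every bone marrow library. No other tissue exceeded a mean of 0.767 CPM, and heart, kidney and liver held 0 reads. Siglec-F is also carried by mouse alveolar macrophages and by tuft cells of the gut. All 10 genes of the alveolar macrophage list had reads in lung, but the list was not particular to lung, since its sum was between 1396 and 1516 CPM in bone marrow and 603 and 828 CPM in lung. Of its 10 genes, 3 were called higher and 2 lower in bone marrow against the other 14 tissues (17.6% and 16.1% of tested genes). Marco and Krt79 were picked from it after their values were seen. Marco, a scavenger receptor, stood at 2.50 ± 1.55 CPM in bone marrow and 14.3 ± 2.37 CPM in lung. Krt79 had 0 reads in bone marrow and 15.0 ± 2.76 CPM in lung. The list of 8 tuft cell genes summed to between 142 and 157 CPM in bone marrow, 54.3 and 73.5 CPM in small intestine and 46.2 and 77.2 CPM in colon, so it was not particular to gut. Of 7 tested genes of this list, 2 were called higher and 2 lower in bone marrow against the other 14 tissues. The ion channel gene Trpm5, picked from it after its values were seen, stood at 10.1 ± 1.84 CPM in small intestine and 9.58 ± 3.48 CPM in colon. Trpm5 had reads in bone marrow as well. Whether alveolar macrophages or tuft cells contribute to the Siglecf reads was not tested.

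Ccr3, the receptor for eotaxins (ENSMUSG00000035448, chromosome 9, 124021972 to 124031689, plus strand), and Il5ra, the ligand-binding chain of the interleukin 5 receptor (ENSMUSG00000005364, chromosome 6, 106710357 to 106749037, minus strand), were the members whose levels were not highest in bone marrow. Their promoters are shown because each holds both AGATAA, a form bound by GATA factors, and GAGGAA, a form bound by PU.1 and related factors. Both are in capitals, and the sequences are given by RefSeq on the strand of the gene as above.
Ccr3 (chr9:124021721-124022020, plus strand): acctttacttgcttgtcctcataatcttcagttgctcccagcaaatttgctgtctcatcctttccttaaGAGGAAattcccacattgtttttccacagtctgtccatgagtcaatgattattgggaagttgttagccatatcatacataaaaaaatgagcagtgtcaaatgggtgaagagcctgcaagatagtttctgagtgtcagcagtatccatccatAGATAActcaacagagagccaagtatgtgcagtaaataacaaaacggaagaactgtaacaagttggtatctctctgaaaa
Il5ra (chr6:106748988-106749287, minus strand): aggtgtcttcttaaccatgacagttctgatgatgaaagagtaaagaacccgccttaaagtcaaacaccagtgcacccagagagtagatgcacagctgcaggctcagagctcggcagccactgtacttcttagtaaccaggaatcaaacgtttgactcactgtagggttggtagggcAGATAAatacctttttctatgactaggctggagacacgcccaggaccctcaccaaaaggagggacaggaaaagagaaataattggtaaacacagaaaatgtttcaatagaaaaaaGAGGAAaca
The first base of AGATAA lies at -30 from the start site in Ccr3 and at -74 in Il5ra. Searched on both strands, AGATAA occurs in 11.2% of all promoters of this length and GAGGAA in 28.3%. In the 8 members with a promoter in the table, AGATAA was found in these 2 alone, and none of the 3 forms was found in Epx, Prg3 or Ear6. Prg2 had no entry.

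Ccr3 stood at 23.04, 20.65, 23.9 and 24.5 CPM in bone marrow and at 32.4, 25.05, 22.5 and 32.2 CPM in spleen, which overlap. Blood held 2.55, 9.73, 2.50 and 5.43 CPM and small intestine 2.30, 1.30, 3.23 and 3.25 CPM, which also overlap. In female reproductive tract the mean of 2.72 ± 2.22 CPM came mainly from the 2 libraries that stood apart, with 4.14 and 5.09 CPM in replicates 3 and 4, against 0.967 and 0.696 CPM in replicates 1 and 2. Kidney held 0 reads. Ccr3 is also known on basophils, and 6 basophil genes summed to between 246 and 297 CPM in bone marrow and to between 8.19 and 12.8 CPM in spleen, 17.8 and 32.9 CPM in blood and 0.434 and 2.87 CPM in small intestine. In small intestine, 4 of the 6 (Prss34, Cd200r3, Fcer1a and Ms4a2) had no read.

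Il5ra stood at 8.64, 8.17, 9.69 and 8.44 CPM in bone marrow, at 12.7, 9.73, 24.3 and 16.7 CPM in blood and at 13.6, 9.83, 12.3 and 11.3 CPM in spleen. Every bone marrow library was below every blood and every spleen library, while blood and spleen overlapped. Inguinal lymph node had 6.49 ± 1.23 CPM and mesenteric lymph node 4.35 ± 1.18 CPM. Il5ra is known in the mouse on B-1 cells as well as on eosinophils. A list of 5 B cell genes summed to between 517 and 670 CPM in bone marrow, and to between 2590 and 2835 CPM in blood, 1878 and 2026 CPM in spleen, 1349 and 1682 CPM in inguinal lymph node and 870 and 1215 CPM in mesenteric lymph node. By their means, the Il5ra levels had the same order except for bone marrow, but blood overlapped spleen and the lymph nodes overlapped each other. Elsewhere the order differed. The B cell list had a median of 139 CPM in lung, 53.2 CPM in thymus and 3.94 CPM in kidney, where Il5ra had means of 1.18, 1.27 and 1.38 CPM. The part of B cells in the Il5ra levels was not tested. In female reproductive tract, 5.94 CPM in replicate 4 made up most of the mean of 1.78 ± 2.80 CPM.

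The make-up of the reads differed between tissues accordingly. Prg2 took 64.02% of the 40934 reads of the 9 genes in bone marrow (95% exact binomial interval 63.6% to 64.5%), against 17.4% of 1220 in spleen (15.3% to 19.6%), 35.9% of 128 in small intestine (27.7% to 44.9%) and 1.30% of 695 in blood (0.594% to 2.44%). Ear2 took 8.21% in bone marrow, against 91.99% of 287 reads in skin, 77.3% of 533 in lung and 68.1% in blood. Ccr3 took 31.1% of the spleen reads, Prg3 47.0% of the 594 inguinal lymph node reads and Siglecf 32 of the 128 small intestine reads. These are shares of reads, not of molecules, so only the share of the same gene is compared between tissues. The intervals pool the reads of 4 libraries and leave out the spread between libraries, so they are too narrow for a tissue. In spleen, Prg2 ran from 11.6 to 22.5 CPM between libraries.

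**Figure D2:**
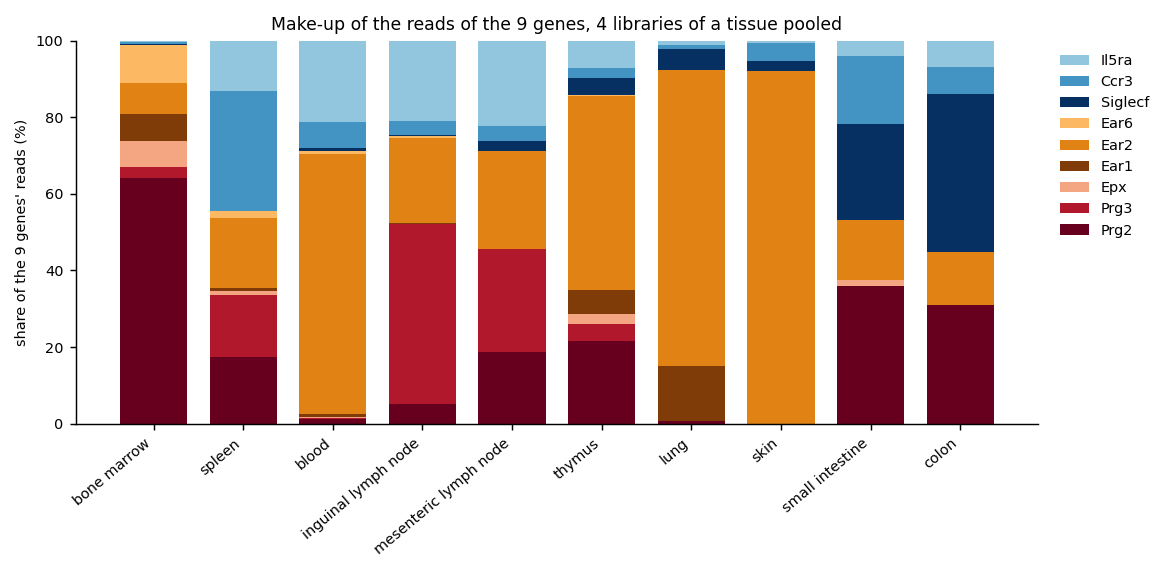
Share of each of the 9 genes (colours) in the reads of all 9, in percent, with the 4 libraries of a tissue pooled and tissues along the horizontal axis. Prg2 takes 64.02% of the reads in bone marrow, Ear2 takes 91.99% in skin and 77.3% in lung, and Prg3 takes 47.0% in inguinal lymph node.

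Bone marrow was next set against blood, spleen and small intestine one at a time. Preparing mononuclear cells, as the titles of the blood libraries have it, normally removes most granulocytes, so a difference between marrow and circulating eosinophils cannot be told apart from that step in the blood comparison. Each pair was fitted on its own 8 libraries. Against blood, 8 of the 9 genes were called higher in bone marrow, where 17.9% of 11325 tested genes were called higher and 16.4% lower. The log2 fold change, given here and below with its SE, was 11.31 ± 0.19 for Prg2, 9.70 ± 0.24 for Ear6 and 8.90 ± 0.23 for Ear1. The SE here is the absolute log2 fold change divided by the square root of the F statistic of the test. It does not measure the counting error where the other tissue has few reads. Prg2, Ear6 and Ear1 had 9, 4 and 5 blood reads. Their ratios of pooled levels were 2616 (95% counting interval 1378 to 5722), 920 (359 to 3377) and 515 (220 to 1588). For Prg3 and Epx, with 1 and 2 blood reads, the ratio of pooled levels was 1145 (95% counting interval 205 to 45244) and 1225 (339 to 10120). Ear2 was 2.66 ± 0.14 higher on the log2 scale, with 344 ± 36.4 CPM in bone marrow and 56.1 ± 13.5 CPM in blood (edgeR's quasi-likelihood test, adjusted p = 4.268e-13). Among the receptors, Siglecf was 3.50 ± 0.43 higher (adjusted p = 4.523e-07) and Ccr3 2.15 ± 0.28 higher (adjusted p = 1.103e-06) in the same edgeR fit.

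Il5ra alone was lower in bone marrow than in blood, by a log2 fold change of -0.88 ± 0.26 that passed the adjusted p (edgeR's quasi-likelihood test, 0.005119) and not the fold threshold. It passed both without blood replicate 2 (-1.08, adjusted p = 0.0006213 with edgeR) and with scaling by library totals alone (-1.14, adjusted p = 0.0003048 with edgeR). The 5 B cell genes were all called lower in bone marrow than in blood, as were 16.4% of tested genes.

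Against spleen, 7 of the 9 were called higher in bone marrow, where 14.8% of 12238 tested genes were called higher and 16.2% lower. Ear1 (8.52 ± 0.18), Epx (8.22 ± 0.16), Ear6 (8.13 ± 0.13) and Prg2 (7.51 ± 0.11) had the largest log2 fold changes, and Ear2 (4.48 ± 0.10) and Prg3 (3.26 ± 0.10) smaller ones. Ear1, Epx and Ear6 had 11, 13 and 21 spleen reads. Their 95% counting intervals, 203- to 728-fold, 171- to 549-fold and 177- to 439-fold, overlap, so the order among them is not settled. Prg3 was thus nearest to its marrow level of the granule genes, at 11.04% of it in spleen on average, against 0.583% for Prg2 and 0.334% for Epx. Siglecf, with 3 reads in spleen, was 42.7-fold higher in bone marrow (95% counting interval 14.2 to 211). Ccr3 differed by -0.19 ± 0.15 (edgeR adjusted p = 0.2591) and Il5ra by -0.34 ± 0.21 (edgeR adjusted p = 0.1548), and neither was called.

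Against small intestine, all 9 were called higher in bone marrow, where 23.5% of 12353 tested genes were called higher and 28% lower. The log2 fold change was 9.05 ± 0.21 for Prg2 and 7.28 ± 0.19 for Ear2. Prg3, Ear1 and Ear6 had no small intestine read, so bone marrow was at least 395-, 888- and 1268-fold higher, and Epx, with 2 reads, had a ratio of 1267 (95% counting interval 350 to 10464). The receptors had smaller fold changes. Their bone marrow levels were low, with means of 9.34 CPM for Siglecf and 8.74 CPM for Il5ra. From such levels, folds as large as those above could hardly be measured. The log2 fold change was 1.44 ± 0.28 for Siglecf (edgeR adjusted p = 0.0001172), 3.19 ± 0.26 for Ccr3 (edgeR adjusted p = 7.591e-10) and 3.91 ± 0.43 for Il5ra (edgeR adjusted p = 5.477e-08). Il5ra had 5 small intestine reads, and its ratio of pooled levels was 15.98 (95% counting interval 6.59 to 50.5).

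**Figure D3:**
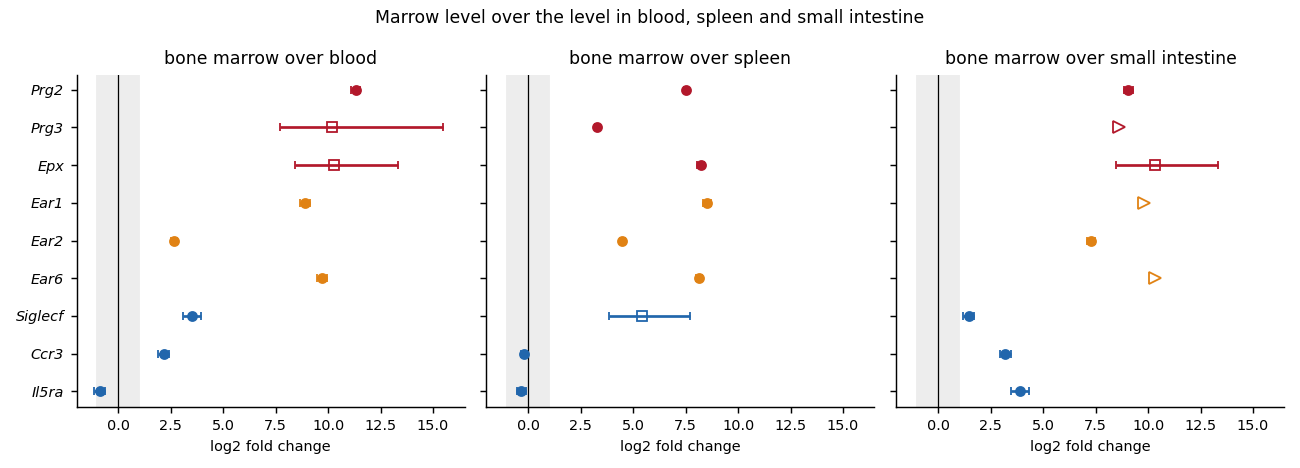
Log2 fold change of each gene in bone marrow over blood, spleen and small intestine, with filled points and SE bars from the fits, open squares with 95% counting intervals where the other tissue has 1 to 3 reads, and open triangles for lower bounds where it has none; within the grey band no gene is called. Ccr3 and Il5ra lie in the band against spleen, and Il5ra at -0.88 against blood. The SE bars do not measure the counting error where the other tissue has few reads.

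Small intestine against colon asked whether the members differ along the gut. None of the 9 passed the filter in this pair, where 13.5% of 10773 tested genes were called higher and 12.2% lower in small intestine. With no filter, edgeR tested 6 of them and called 0, with 2 (Prg2 and Ccr3) at an unadjusted p under 0.05 and an adjusted p of 0.09609 and 0.06941. In the fit of all 60 libraries, edgeR tested 9 and called 0, with the same 2 under 0.05 unadjusted. DESeq2, run on the filtered genes, had none of the 9 to test. The values were 5.38 ± 3.12 CPM in small intestine and 2.03 ± 1.71 CPM in colon for Prg2, 2.52 ± 0.924 and 0.447 ± 0.519 CPM for Ccr3, and 3.43 ± 0.666 and 2.70 ± 0.543 CPM for Siglecf. These rest on 46, 23 and 32 reads in small intestine and 9, 2 and 12 in colon. For Ccr3 every small intestine library (1.30 to 3.25 CPM) was above every colon library (0 to 0.953 CPM), while Prg2 and Siglecf overlapped.

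The receptor gene Ccr3 was then related to the granule gene Epx within each library, as the log2 of their ratio after adding 0.5 CPM to each. In small intestine it was 2.49, 1.85, 2.12 and 1.85, and in bone marrow -3.68, -3.86, -3.30 and -3.44. The groups did not overlap, and the means were 2.08 ± 0.30 in small intestine and -3.57 ± 0.25 in bone marrow, a difference of 5.65 (two-sided exact permutation test, p = 0.02857, which is 2 of 70 and the smallest that 4 against 4 allows). Epx had 2 reads in all in small intestine, so the size depends on the added value. Spleen had the highest mean, 4.36 ± 0.70, and blood 2.94 ± 0.96. Bone marrow had the lowest of the 15 tissues, and no other tissue had a mean below -0.51. Every library of the other 14 tissues lay above every bone marrow library. Heart did so at 0 in all 4 libraries, with 1 read of each gene in all. The separation therefore goes with the high Epx level of bone marrow, and the p shows nothing particular to small intestine.

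**Figure D4:**
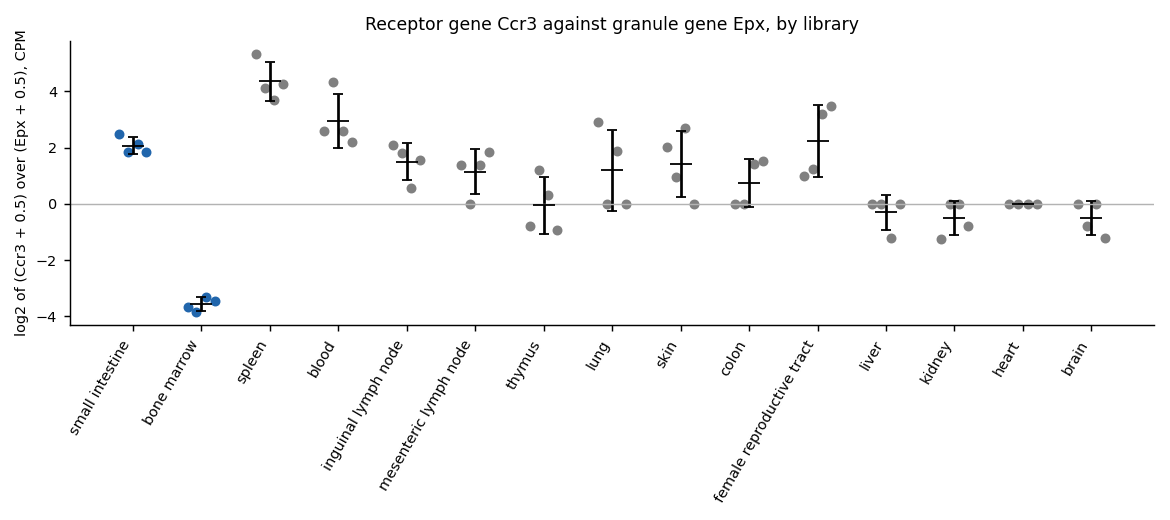
Log2 of the ratio of Ccr3 to Epx, each in CPM with 0.5 added, for the 4 libraries (points) of each tissue, with mean and SD in black; small intestine and bone marrow, which were tested, are in blue. Small intestine lies between 1.85 and 2.49 and bone marrow between -3.86 and -3.30, while libraries with no reads of either gene lie at 0.

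To see which tissues outside the marrow held the genes, each of the 14 was tested against the equally weighted mean of the other 13, leaving bone marrow out of the contrast. Of the 126 gene and tissue pairs, 36 were called higher and 3 lower. Spleen had 8 genes called higher (background 18.4% of tested genes), blood 6 (18.6%) and thymus 6 (19.6%). Spleen kept a count of 8 in every alternative, while the count for blood was 3 with the DESeq2 Wald test and 4 without replicate 4, and that for thymus was 4 with the Wald test and 4 without replicate 3. Lung had 3 (16.2%), mesenteric lymph node 3 (17.5%), small intestine 3 (19.4%), inguinal lymph node 2 (17.5%) and skin 2 (17.9%). Colon (16.7%), brain (27.3%) and heart (19.8%) had 1 each. Female reproductive tract (22.6%), kidney (21%) and liver (18.2%) had 0 with edgeR, where 1, 2 and 1 genes had an unadjusted p under 0.05 in either direction. The DESeq2 Wald test called 1 gene higher in female reproductive tract and 0 in kidney and liver. The 3 lower calls were Ear2 in brain, Ccr3 in kidney and Prg2 in skin, all with 0 reads there, where 16.4%, 9.57% and 6.53% of tested genes were called lower. In the other tissues the backgrounds of calls lower were 19.4% in blood, 17% in liver, 14.4% in colon, 13.6% in thymus, 12.9% in heart, 12.2% in lung, 10.7% in spleen, 8.77% in small intestine, 7.99% in inguinal lymph node, 5.47% in mesenteric lymph node and 5.17% in female reproductive tract. Ear2 had 0 reads in brain alone, Ccr3 in kidney alone and Prg2 in skin alone. Where another tissue of a contrast holds 0 reads, its fitted level has no lower bound. In that case edgeR's test can hardly call the tested tissue lower. For the other genes, and for these 3 in other tissues, the lack of a lower call is therefore no result. The DESeq2 Wald test called 22 of the 126 pairs lower. With edgeR, the count of lower calls in kidney was 0 without replicate 1 and without replicate 4, and that in skin was 0 without replicate 2. Replicates 1 and 4 held the only Ccr3 read of liver and of heart, and replicate 2 the only Prg2 read of female reproductive tract. Since a gene with 0 reads in several tissues has a very low mean over them, few reads suffice for a call higher, and 7 of the 36 rested on under 10 reads.

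A stricter reading, chosen after the values were seen, also asked for a mean of at least 1 CPM and a lowest library above all libraries of at least 10 of the other 13 tissues, and 16 pairs met it. How many of all tested genes would meet it was not worked out, so these counts have no background and are descriptions. In spleen 6 genes met it, with log2 fold changes of 6.63 ± 0.27 for Prg3, 5.45 ± 0.25 for Ccr3, 4.15 ± 0.24 for Prg2, 4.06 ± 0.30 for Il5ra, 3.90 ± 0.51 for Ear6 and 2.21 ± 0.22 for Ear2. In lung Ear1 (6.60 ± 0.41), Ear2 (4.63 ± 0.18) and Siglecf (4.05 ± 0.45) met it, and in blood Il5ra (4.56 ± 0.31) and Ear2 (4.10 ± 0.18). Prg3 met it in inguinal (6.59 ± 0.26) and mesenteric lymph node (5.07 ± 0.35), Ear2 in skin (2.98 ± 0.21), and Siglecf in small intestine (3.36 ± 0.42) and colon (2.98 ± 0.57). The adjusted p of the 16 ran from 3.212e-29 for Ear2 in lung to 1.513e-05 for Siglecf in colon (edgeR's quasi-likelihood test). These folds are against a log mean that includes tissues with no reads, so their size is not a ratio of levels. Their size also depends on the prior count, which the SE, taken from the fold and the F statistic, does not measure. Among the members, the receptor gene Siglecf alone met this reading in the gut, at 3.43 CPM in small intestine and 2.70 CPM in colon. In small intestine, Prg2 (log2 fold change 2.43 ± 0.37, edgeR adjusted p = 1.316e-07) and Ccr3 (1.73 ± 0.47, edgeR adjusted p = 0.001318) were also called higher than in the other 13, from 46 and 23 reads.

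Low levels of marrow genes elsewhere can be read beside other marrow genes, so each level was expressed as a percentage of the bone marrow mean and set beside 7 neutrophil precursor genes (Mpo, Elane, Prtn3, Ctsg, Ngp, Camp and Ltf). In small intestine Prg2 was at 0.201%, above all 7, which lay between 0% and 0.104% with a median of 0.0273%. The basophil gene Mcpt8 stood at 0.198% there, from 2 reads. In spleen Prg2 was at 0.583%, Ear6 at 0.360% and Epx at 0.334%, above the 7, which lay between 0.164% and 0.292%. Other marrow genes were higher than Ear6 and Epx in spleen, with the mature neutrophil genes S100a8 at 0.399% and S100a9 at 0.419% and the basophil genes Mcpt8 at 0.408% and Prss34 at 0.450%, so that of Prg2, Prg3, Ear6 and Epx, Prg2 and Prg3 were above all of these genes. In colon Prg2 was at 0.0760%, above the highest of the 7 at 0.0258% and below Mcpt8 at 0.233%, which rests on 1 read. In mesenteric lymph node it was at 0.139%, within their range of 0.0163% to 0.181%, and in thymus at 0.137%, within 0.0630% to 0.223%. In inguinal lymph node, at 0.0586%, it was below all 7, whose lowest was 0.0911%, and in blood, at 0.0323%, below all 7, whose lowest was 0.0780%. Prg3 was far above the 7 in spleen (11.04%), inguinal lymph node (10.7%) and mesenteric lymph node (4.01%). In liver, kidney, heart, lung and female reproductive tract Prg2 lay within the range of the 7, and in brain, at 0.0118%, below their lowest of 0.0252%. Female reproductive tract had 1 of the 7 genes at 52.8%.

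**Figure D5:**
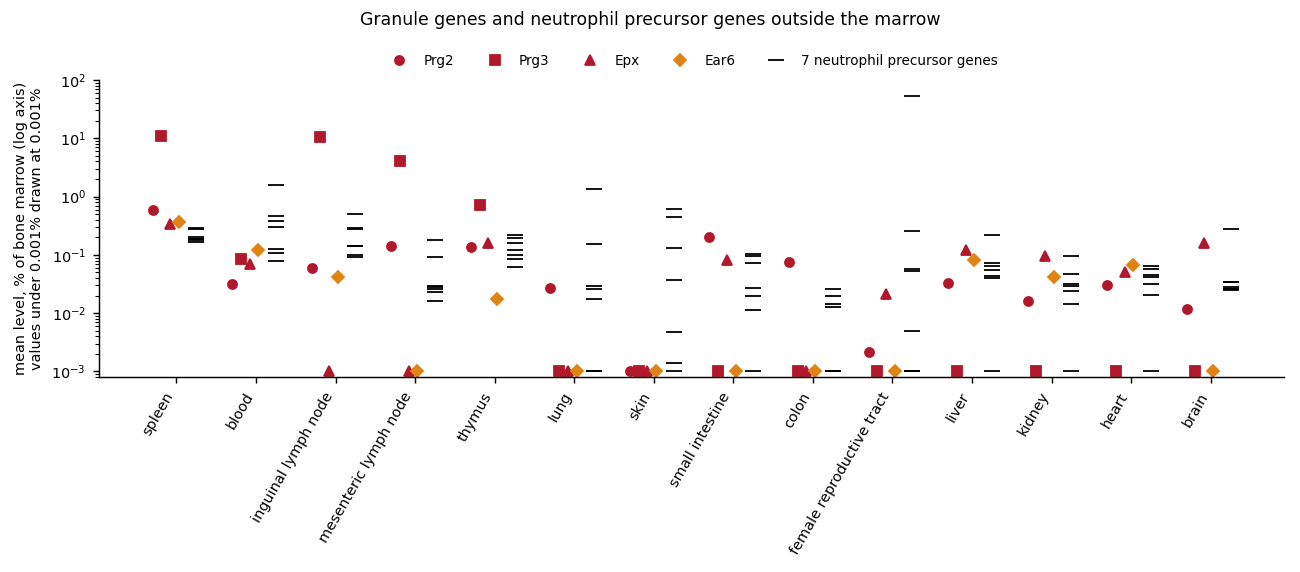
Mean level of Prg2, Prg3, Epx and Ear6 (coloured symbols) and of 7 neutrophil precursor genes (black dashes) in each tissue, as a percentage of the bone marrow mean on a log axis, with values under 0.001% drawn at 0.001%. Prg2 lies above all 7 dashes in spleen, small intestine and colon, and below all 7 in blood and inguinal lymph node.

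Other genes of the same pathway were read from lists, as counts over the genes that passed the filter. Of 10 cytokine and chemokine genes that act on eosinophils, 5 were tested in bone marrow against the other 14 tissues. The chemokine Ccl5 was called higher, with a log2 fold change of 1.27 ± 0.18, and the eotaxin Ccl24 lower, with -2.40 ± 0.82. Of all tested genes, 17.6% were called higher and 16.1% lower there. Against small intestine, 3 of 4 were called lower in bone marrow, where 28% of tested genes were called lower. Bone marrow held 0 reads of the eotaxin Ccl11, against 28.7 ± 6.90 CPM in small intestine. Ccl24 stood at 0.38 ± 0.53 CPM in bone marrow and 12.3 ± 6.31 CPM in small intestine, and the alarmin Il33 at 1.14 ± 1.11 CPM in bone marrow and 17.2 ± 1.79 CPM in small intestine. In small intestine against colon, Ccl5 (3.39 ± 0.34) and Il33 (2.01 ± 0.38) were called higher of 3 tested, against 13.5% of all tested genes. Il5, the growth factor of the lineage, did not exceed a mean of 0.405 CPM in any tissue.

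Of 8 partner receptors and signal chains, 6 were called higher and 1 lower in bone marrow against the other 14 tissues (17.6% and 16.1% of tested genes). Their median log2 fold change was 1.91, against -0.21 over all tested genes. Il1rl1, the receptor for interleukin 33, stood at 33.2 ± 8.09 CPM in bone marrow. The log2 fold change was 2.91 ± 0.10 for the signal chain Fcer1g, 2.47 ± 0.11 for the shared beta chain Csf2rb and 2.46 ± 0.11 for Csf2ra, while Il13ra1 was called lower at -1.47 ± 0.22. Csf2rb stood at 93.2 ± 10.5 CPM in bone marrow, below 187 ± 31.7 CPM in inguinal and 184 ± 30.1 CPM in mesenteric lymph node. Of 9 listed genes for transcription factors or their regulators, 5 were called higher in bone marrow (17.6% of tested genes) and the other 4 were not called, with a median of 1.37. The list was not particular to eosinophils or to bone marrow, since its sum was between 781 and 877 CPM in bone marrow and 785 and 1068 CPM in liver. Cebpe, a factor of terminal granulocyte differentiation, had 94.9 ± 13.8 CPM in bone marrow and 0.960 ± 1.09 CPM in small intestine. Gata1 had 107 ± 2.08 CPM in bone marrow and 36.3 ± 1.34 CPM in blood, and is shared with red cells and platelets. Zfpm1, a partner of GATA factors, had a log2 fold change of 3.31 ± 0.10 and Spi1, which encodes PU.1, 3.21 ± 0.10. All 5 tested basophil genes, all 7 neutrophil precursor genes, all 7 mature neutrophil genes and all 5 B cell genes were also called higher, against the same 17.6%.

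Over the 15 tissue means, levels of Epx and Ear6 followed each other closely on the log2(CPM + 1) scale (Pearson r = 0.993), and Prg2 with Epx gave 0.941. Other pairs of granule and ribonuclease genes were less alike, down to 0.551 for Prg3 with Ear2. Among the receptors, Ccr3 with Il5ra gave 0.736, Siglecf with Ccr3 0.401 and Siglecf with Il5ra 0.129, and Epx with Il5ra gave 0.366. These 15 points share libraries and bone marrow weighs heavily among them, so the values are descriptions. Outside the members, the genes most like Epx were Fcnb (0.994), Ms4a3 (0.993), Asb17os (0.990), Elane (0.989) and Btnl10 (0.989). Fcnb encodes a ficolin, Ms4a3 marks granulocyte progenitors and Elane encodes neutrophil elastase. Those most like Siglecf were Adam10 (0.835), Tlnrd1 (0.808), Cox6b2 (0.799), Brpf3 (0.790) and Sdcbp (0.788). Those most like Ccr3 were Siglece (0.912), Clec4a2 (0.855), Sh2d1b1 (0.853), Mefv (0.848) and Pilrb2 (0.837).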

How the data were processed

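Polyadenylated RNA of 15 whole tissues with 4 replicates each was read from the 3′ end. The deposited table holds raw counts per gene, and per the submitters' processing notes FastQC, STAR, featureCounts and the build mm10 were used, with versions and strand setting not given in the sources used here. Reads from near-identical copies can be lost or misplaced in such counts. Of 54532 genes, 54409 matched GENCODE mouse release M21 by identifier, which gave positions. Counts were analysed in R 4.3.3 with edgeR 4.0.16: filterByExpr by tissue (minimum count 10, minimum total 15), TMM scaling, glmQLFit and glmQLFTest with tissue as the only term, and Benjamini-Hochberg adjustment over all tested genes. Library totals from 353605 to 5211133 set the precision: at 3 counts over 4 pooled libraries, the limit for a gene with 0 reads ran from 0.152 to 0.681 CPM. The ratio of Ccr3 to Epx was tested by an exact permutation test in SciPy 1.17.1. The fits of bone marrow against the other tissues and of the pairs were tried on simulated data. Only genes above a floor of mean count were changed there, with 1 common spread for all genes. The contrasts among the tissues outside the marrow, and genes with 0 reads in a tissue, were not covered. Alternatives were DESeq2 size factors, library totals alone, no filter, the DESeq2 1.42.0 Wald test, a replicate block, leaving out each replicate, fits on all 60 libraries, and other added values for the ratio.

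The 9 members and all gene lists were chosen with earlier results of these data known. Named genes were all members, up to 4 called genes of a list by size of change with at least 5 CPM on either side, and the 5 genes most like Epx, Siglecf and Ccr3. Other genes named for their levels (Il5, Rnase2b, Defa24, Csf2rb in lymph nodes and the marker genes) were chosen after their values were seen. Promoters came from RefSeq (GRCm38.p6), which had 8 of the 9 members.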

Additional observations from a re-analysis of the deposited data

How the results depend on the processing

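The counts of members called higher were the same under every alternative for bone marrow against the other 14 tissues (9), blood (8), spleen (7) and small intestine (9). In these 4 comparisons, 502 of 504 single alternative values kept their direction and their side of the threshold, and the other 2, for Il5ra against blood, passed the fold threshold (-1.14 with library totals alone and -1.08 without blood replicate 2), which made 1 member lower there. Of the 14 tissues outside the marrow, 36 calls higher became 16 under the stricter reading chosen after the data were seen, and lay between 30 and 37 otherwise, with 35 when the 4 doubted libraries of female reproductive tract, brain and liver were left out, also an alternative chosen after the data were seen. All 16 stayed called higher in each of 10 alternatives, where the stricter reading itself was not applied again. The 16 were picked from these same data as clear calls, so this is no independent support. The 3 calls lower became 22 with the DESeq2 Wald test, and the cause was not tested.

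The Ccr3 to Epx difference lay between 5.51 and 5.74 when 1 library was left out, with an exact permutation p of 0.05714, the smallest possible there. With the replicate block it was 5.65, with an exact p of 0.125, again the smallest possible. It was 7.002 and 5.05 with 0.1 and 1 CPM added. In the 105 pairs of tissues, same-numbered libraries never all correlated above 0.1 in their deviations, so the numbers were not treated as pairing the libraries, although whether they share an animal is not known. The median correlation was 0.0149 for the same number and -0.0055 for other numbers. For bone marrow the mean of the same number was small but positive with every other tissue, between 0.0037 and 0.0346. The mean correlation was highest of the 105 pairs for inguinal with mesenteric lymph node, 0.125 for the same number and -0.0417 for other numbers. The block left every count of member calls the same. Over all genes, scaling by library totals alone moved the split of calls higher and lower from 2022 and 1854 to 1568 and 2604 against blood, from 1817 and 1988 to 1217 and 3479 against spleen and from 1454 and 1309 to 929 and 2309 for small intestine against colon. Calls lower over all genes were 3177 with no filter against spleen, 3303 there in the fit of all 60 libraries, and 5192 with no filter against small intestine, where the main count was 3459, and calls higher for small intestine against colon 2622 with no filter and 2904 in that fit, where more genes were tested. Depth limits the genes outside the marrow, where many means rest on under 10 reads.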
